A study of Mus musculus with 19 samples.

Results

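The genes described here were 49 mouse genes of the cell cycle and of DNA replication, taken from a list of gene symbols, out of 48709 genes in the count table. The list held 2 markers of proliferating cells (Mki67, Top2a), 4 cyclin-dependent kinases, 6 genes of D-type and E-type cyclins with the transcription factor E2f1, 3 A-type and B-type cyclins, 11 genes of origin licensing and the replicative helicase, 5 genes of the replication fork, 4 genes of nucleotide supply and 14 genes of mitosis and cytokinesis. All 49 symbols were found, and all 49 met the minimum of 5 counts in 50% of the libraries, which left 19297 genes to be tested. The lowest was Ccnb1, which had 5 counts or more in 11 of 19 libraries. The annotation has another gene overlapping 20 of the 49 members, and since the strand of the counting is not given, reads of such a pair may have been shared or dropped.

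The libraries were made from polyA RNA of the microdissected CA1 region of the hippocampus of 7-month-old mice. Those named WT control (n = 6) were littermates without the transgenes that received scrambled control oligonucleotides, APP control (n = 6) were APPPS1-21 mice given the same oligonucleotides, and those of the APP anti-miR-mix group (n = 7) were APPPS1-21 mice that received inhibitors of miR-148a-3p, miR-146a-5p and, besides these, miR-181a-5p. The mice of all 3 groups had been injected with lipid nanoparticles in the dorsal hippocampus. APPPS1-21 mice carry mutant human APP under the Thy1 promoter, which is active in neurons, so its expression follows that promoter and not the control of the normal gene. The titles of the WT control libraries also carry the name of the mix, and the word control in them was followed. The labels do not say that each library came from a separate animal, so the p-values measure the spread between these libraries. Total counts were 19362343 to 37018917 per library.

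The labels were checked with marker genes. Thy1 had 18117 to 20734 normalized counts (counts divided by the DESeq2 size factor of the library) in WT control, 36153 to 62866 in APP control and 43203 to 54141 in APP anti-miR-mix, so that both transgenic groups lay above every WT control library. The CA1 pyramidal neuron markers Wfs1 and Fibcd1 were present in every library, with 2748 to 10090.1 and 2623 to 11298 normalized counts. These are tissue samples, in which fewer cells of a type and less RNA per cell cannot be told apart.

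Cells that divide pass from a resting state into G1, copy their DNA in S phase and separate it in mitosis. D-type cyclins with Cdk4 or Cdk6 begin the passage by phosphorylating the retinoblastoma protein, which frees E2F factors to switch on replication genes, and A-type and B-type cyclins with Cdk1 drive mitosis. In the adult hippocampus nearly all neurons have left the cycle. Dividing cells there are mainly glia, such as microglia and oligodendrocyte precursors, and neural progenitors of the dentate gyrus, while D-type cyclins and some replication factors are also found in cells that do not divide.

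Some genes of this kind hold certain short promoter words, and the promoters of 4 members are shown. Cdk6 and Cdk1 were taken because the report turns on them. Mcm6 and Ccnb2 were taken because they carry the words typical of S-phase and of mitotic genes. The 250 bases before each start site are from RefSeq on GRCm38.p6. Capitals mark E2F words (TTTGGCGC, TTTCCCGC, TTTGCCGC or TTTCGCGC), the cell cycle homology region word TTTGAA and CCAAT, each on either strand. The windows are chr5:3343643-3343892 on the plus strand for Cdk6, chr10:69352913-69353162 on the minus strand for Cdk1, chr1:128359706-128359955 on the minus strand for Mcm6 and chr9:70421555-70421804 on the minus strand for Ccnb2.
Cdk6: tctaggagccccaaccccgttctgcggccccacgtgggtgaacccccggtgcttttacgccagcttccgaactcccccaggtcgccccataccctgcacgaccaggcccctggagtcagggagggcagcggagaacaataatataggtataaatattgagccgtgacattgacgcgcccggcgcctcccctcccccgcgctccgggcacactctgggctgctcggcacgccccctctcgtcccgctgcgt
Cdk1: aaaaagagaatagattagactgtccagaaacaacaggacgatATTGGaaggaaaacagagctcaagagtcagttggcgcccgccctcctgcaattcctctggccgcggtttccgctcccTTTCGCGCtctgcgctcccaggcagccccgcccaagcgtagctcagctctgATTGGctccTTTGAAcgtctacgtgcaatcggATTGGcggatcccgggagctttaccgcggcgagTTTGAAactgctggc
Mcm6: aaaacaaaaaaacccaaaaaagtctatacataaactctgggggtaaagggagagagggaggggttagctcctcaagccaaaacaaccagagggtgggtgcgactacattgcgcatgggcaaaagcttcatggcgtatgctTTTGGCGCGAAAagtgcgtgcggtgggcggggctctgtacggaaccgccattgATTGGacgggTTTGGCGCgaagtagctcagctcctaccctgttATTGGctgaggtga
Ccnb2: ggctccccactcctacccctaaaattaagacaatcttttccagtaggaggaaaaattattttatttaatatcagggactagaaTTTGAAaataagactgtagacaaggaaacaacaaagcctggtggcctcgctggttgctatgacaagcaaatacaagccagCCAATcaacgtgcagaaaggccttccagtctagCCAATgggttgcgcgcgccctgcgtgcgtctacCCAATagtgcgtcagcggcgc

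The Cdk6 window held none of these words. The Cdk1 window held 1 E2F word, 2 TTTGAA words and 3 CCAAT words, the Mcm6 window 3 E2F words, of which a pair overlap, and 2 CCAAT words, and the Ccnb2 window 1 TTTGAA and 3 CCAAT words. The windows of Mcm3, Ccnd3, Cenpe and Racgap1 were also read and are not shown. They held no E2F or TTTGAA word in the 250 bases before the start site. The RefSeq table held 44 promoters of 38 members, counted from 250 bases before to 50 bases after the start site. Of these 44 promoters 10 held an E2F word (Cdc6, Cdk1, Cdk2, Cdt1, Lig1, Mcm3, Mcm5, Mcm6, Mcm7 and Pold1), against 2.26% of the 32851 promoters of all genes. TTTGAA was found in 16 of the 44, mitotic genes such as Plk1, Kif11 and Cenpf among them, against 17.9% of all promoters. CCAAT was found in 28 of the 44, against 37.4% of all promoters. A match is a run of letters and says nothing of binding.

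The inhibitors of the mix were directed at 3 mature miRNAs, printed from RefSeq with the seed (bases 2 to 8 from the 5′ end) in capitals.
miR-181a-5p: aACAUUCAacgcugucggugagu
miR-148a-3p: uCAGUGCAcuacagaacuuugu
miR-146a-5p: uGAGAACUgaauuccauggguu

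The seeds differ from each other. The 7 letters complementary to the miR-181a-5p seed (TGAATGT) were in the 3′UTR of 6 of 49 members (Aurkb, Ccna2, Ccnb1, Cdk6, Cenpf and Pcna), or 12.2%, against 17.3% of 21037 genes. Those for miR-148a-3p (TGCACTG) were in 4 members (Aurkb, Ccna2, Cdk1 and Plk1), or 8.16%, against 13.4%, and those for miR-146a-5p (AGTTCTC) in 4 members (Birc5, Ccna2, Ccnd2 and Cdk1), or 8.16%, against 11.9%. The sites of Cdk6 and Cdk1 are shown in 30 bases of the 3′UTR with the match in capitals. They lie at chr5:3530325-3530354 (plus strand, Cdk6), chr10:69336898-69336927 and chr10:69335721-69335750 (minus strand, Cdk1) on GRCm38.
Cdk6, miR-181a-5p: gtatccaagggTGAATGTgacgtatctcct
Cdk1, miR-148a-3p: acaaaagccgtTGCACTGgtttgacagcta
Cdk1, miR-146a-5p: cactaggcaggAGTTCTCaaccagcctaga

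Levels were compared per length, as RPKM. In WT control the highest level of the 49 members was that of Cdk4, the partner of D-type cyclins, at 12.9 ± 0.85 RPKM (SD, n = 6). It was followed by the D-type cyclin Ccnd1 at 9.02 ± 1.4 RPKM, by Pcna, the sliding clamp of DNA polymerase, at 6.63 ± 0.32 RPKM, by Ccnd2 at 5.95 ± 0.44 RPKM and by the E-type cyclin Ccne1 at 4.97 ± 0.45 RPKM. The lowest were Ccnb1, a mitotic cyclin, at 0.0312 ± 0.020 RPKM, the kinetochore protein gene Cenpf at 0.0725 ± 0.036 RPKM, the spindle checkpoint kinase Bub1 at 0.0747 ± 0.039 RPKM and Cdk1 at 0.121 ± 0.090 RPKM. The ranges of mean ± SD did not overlap between Ccnd2 and Ccne1, but they did between Pcna and Ccnd2 and between each of the 4 lowest genes and the next. Raw counts of Ccnb1 were 1 to 9 per library, so that differences in Ccnb1 were not detectable at this depth unless large.

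APP control was compared with WT control to see how the transgenes changed these genes. Of the 49 members 2 rose and none fell (4.08%; DESeq2 adjusted p under 0.05), against 4.71% of all 19297 genes (3.66% higher and 1.05% lower). They were Cdk6, which acts in G1, and Cdk1, which drives mitosis. The proliferation markers, the other cyclins and the genes of replication and cytokinesis did not pass the test. The log2 fold change was above 0 for 35 of 49 members, with a median of 0.12, against 45.6% of all genes tested with a median of -0.01.

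Cdk6 (ENSMUSG00000040274, chr5:3341485-3531008, plus strand) had 76.5 to 134 normalized counts in WT control (median 101), 143 to 199 in APP control (median 158) and 138 to 238 in APP anti-miR-mix (median 167). All 13 transgenic libraries lay above all 6 WT control libraries. Groups without overlap occurred in 1.57% of all genes in this comparison, and Cdk6 was the only member among them. The level of Cdk6 in APP control was 1.63-fold that of WT control (log2 fold change 0.71, SE 0.15, DESeq2 adjusted p = 0.000188). It passed the threshold in all 30 alternatives tried, with log2 fold changes of 0.57 to 0.87. A gene annotated antisense within Cdk6, Gm17590, had 0 to 3 counts per library.

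Cdk1 (ENSMUSG00000019942, chr10:69335146-69352938, minus strand) had 5.71 to 38.3 normalized counts in WT control (median 12.2), 18.7 to 63.7 in APP control (median 39.1) and 22.4 to 47.8 in APP anti-miR-mix (median 35.7). WT control 1 and WT control 4 had 38.3 and 28.3, within the range of APP control, and the other WT control libraries had 13.9 or less. Cdk1 was 2.35-fold higher in APP control (log2 fold change 1.23, SE 0.36, DESeq2 adjusted p = 0.0192). The call was lost in edgeR (adjusted p = 0.0787) and in a fit of both groups alone (0.0688). It was also lost with a whole number per library, inferred from the deposited normalized table (the adjustment number), as a factor (0.0560). The same held without WT control 2 (0.0588), WT control 3 (0.0624), WT control 5 (0.0506), WT control 6 (0.0689), APP control 2 (0.0894) or APP control 4 (0.0787). In each of these fits Cdk1 was still higher in APP control, by log2 fold changes of 1.05 to 1.24. In limma on the deposited log2 table the call was kept with a smaller value of 0.63 (adjusted p = 0.0177).

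**Figure D1:**
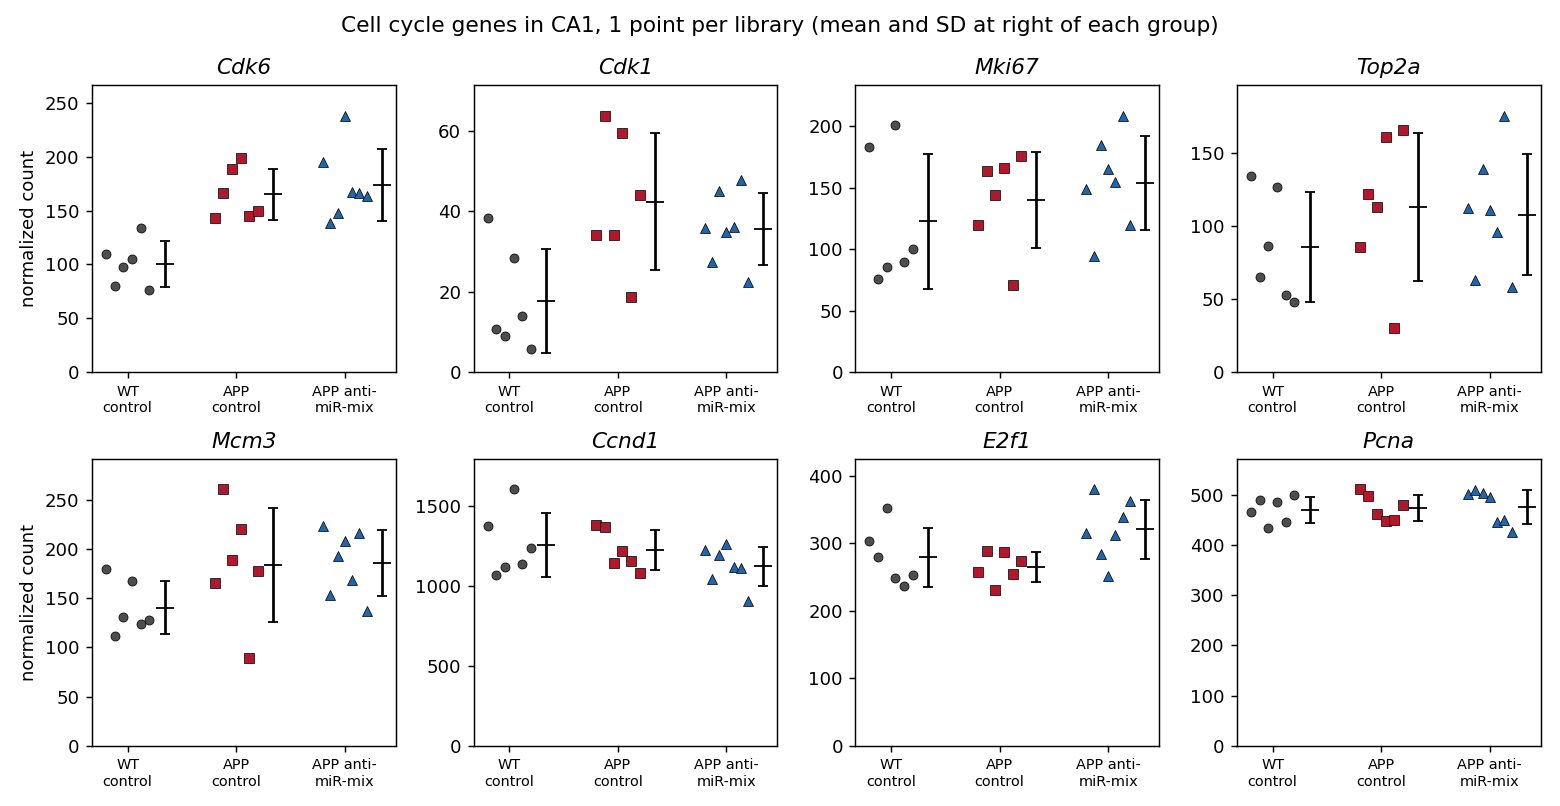
Normalized counts (vertical axes, from 0, counts divided by DESeq2 size factors) of 8 cell cycle genes, with 1 point per library for WT control (n = 6) with APP control (n = 6) and the mix-treated mice (n = 7), and the mean and SD at the right of each group. Cdk6 did not overlap between WT control (76.5 to 134) and both APP groups (138 to 238), whereas Cdk1, Mki67, Top2a, Mcm3, Ccnd1, E2f1 and Pcna overlapped.

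The proliferation markers Mki67, a protein on the surface of mitotic chromosomes, and Top2a, the topoisomerase that untangles them, are commonly used to detect dividing cells. Mki67 had 75.6 to 201 normalized counts in WT control (median 95.1), 71.2 to 176 in APP control (median 154) and 94.4 to 209 in APP anti-miR-mix (median 154). Top2a had 48.0 to 134 (median 75.6), 29.98 to 166 (median 117) and 58.1 to 175 (median 111) in the same order. The groups overlapped for both genes, and WT control 1 and WT control 4, with 183.5 and 200.9 of Mki67, stood above the 75.6 to 100.5 of the other WT control libraries. The log2 fold changes in APP control were 0.18 for Mki67 (SE 0.26, DESeq2 adjusted p = 0.884) and 0.39 for Top2a (SE 0.34, adjusted p = 0.730). The 95% intervals, -0.32 to 0.69 and -0.28 to 1.06, included both no change and, for Top2a, a doubling.

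Of the kinases and cyclins of G1, Cdk4 had a log2 fold change of 0.05 (SE 0.05) and Cdk2, the partner of E-type cyclins, of 0.10 (SE 0.14). Only Ccnd3 of the 6 D-type cyclin, E-type cyclin and E2f1 genes had a value above 0 (0.18, SE 0.09, DESeq2 adjusted p = 0.352). The group ranged from -0.08 (Ccne1) to 0.18, and its median was -0.04. Ccnd1 had 1069.9 to 1604 normalized counts in WT control and 1083 to 1381 in APP control, Ccnd2 1584 to 1806 and 1486 to 1849. These abundant cyclins thus had overlapping ranges, and their standard errors of 0.10 and 0.06 were among the smaller of the list. Of the mitotic cyclins, Ccna2, Ccnb1 and Ccnb2 all had values above 0 (0.14, 0.31 and 0.34), with standard errors of 0.18, 0.52 and 0.22. None passed the test, and Ccnb1 was left without an adjusted p by the filter of DESeq2 on low counts.

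The Mcm genes encode the ring-shaped helicase that opens the DNA, with Cdc6 and Cdt1 loading it and Cdc45 and the GINS subunits activating it. Of these 11 genes 8 had log2 fold changes above 0 and 2 had an unadjusted p under 0.05, Mcm6 (0.24, SE 0.11, DESeq2 adjusted p = 0.234) and Mcm3 (0.38, SE 0.19, adjusted p = 0.348). Over all 49 members 4 had an unadjusted p under 0.05, a share below the 13.7% of all genes. Mcm3 had 112 to 180 normalized counts in WT control (median 130) and 89.0 to 260 in APP control (median 183), and the lowest APP control library, number 5, lay below every WT control library. Without APP control 5, Mcm3 passed the threshold (log2 fold change 0.52, adjusted p = 0.0243). Mcm6 had 200 to 291 and 236 to 371 normalized counts.

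The replication fork genes all had values above 0, from 0.01 for Pcna to 0.12 for Fen1, the nuclease that trims Okazaki fragments. Pcna had 435 to 499 normalized counts in WT control and 447 to 511 in APP control. Lig1, which joins the fragments, had a log2 fold change of 0.02 (SE 0.10). Of the nucleotide supply genes, the ribonucleotide reductase subunits Rrm1 and Rrm2 had values of -0.03 (SE 0.06) and 0.05 (SE 0.20).

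The 14 genes of mitosis and cytokinesis had a median log2 fold change of 0.15, with 9 above 0, and none passed the test. They ranged from -0.16 for the checkpoint kinase Bub1b to 0.68 for Aurkb, the kinase of the chromosomal passenger complex, whose standard error was 0.36 (DESeq2 adjusted p = 0.373). APP control 3 had 60.3 normalized counts of Bub1b where the other APP control libraries had 128 to 168, and without it the value of Bub1b was -0.01. The spindle motor Kif11 had a value of -0.04 (SE 0.24), the kinetochore motor Cenpe of 0.31 (SE 0.17) and Racgap1, which acts at the cleavage furrow, of 0.14 (SE 0.11).

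How small a change could be seen differed between members. The standard error of the log2 fold change in APP control ranged from 0.05 to 0.52, with a median of 0.16. The 95% interval lay within ±0.5 for 29 of 49 members. It lay below 1, a doubling, for 43 members, the exceptions being Top2a, Cdk1, Cdk6, Ccnb1, Bub1 and Aurkb.

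**Figure D2:**
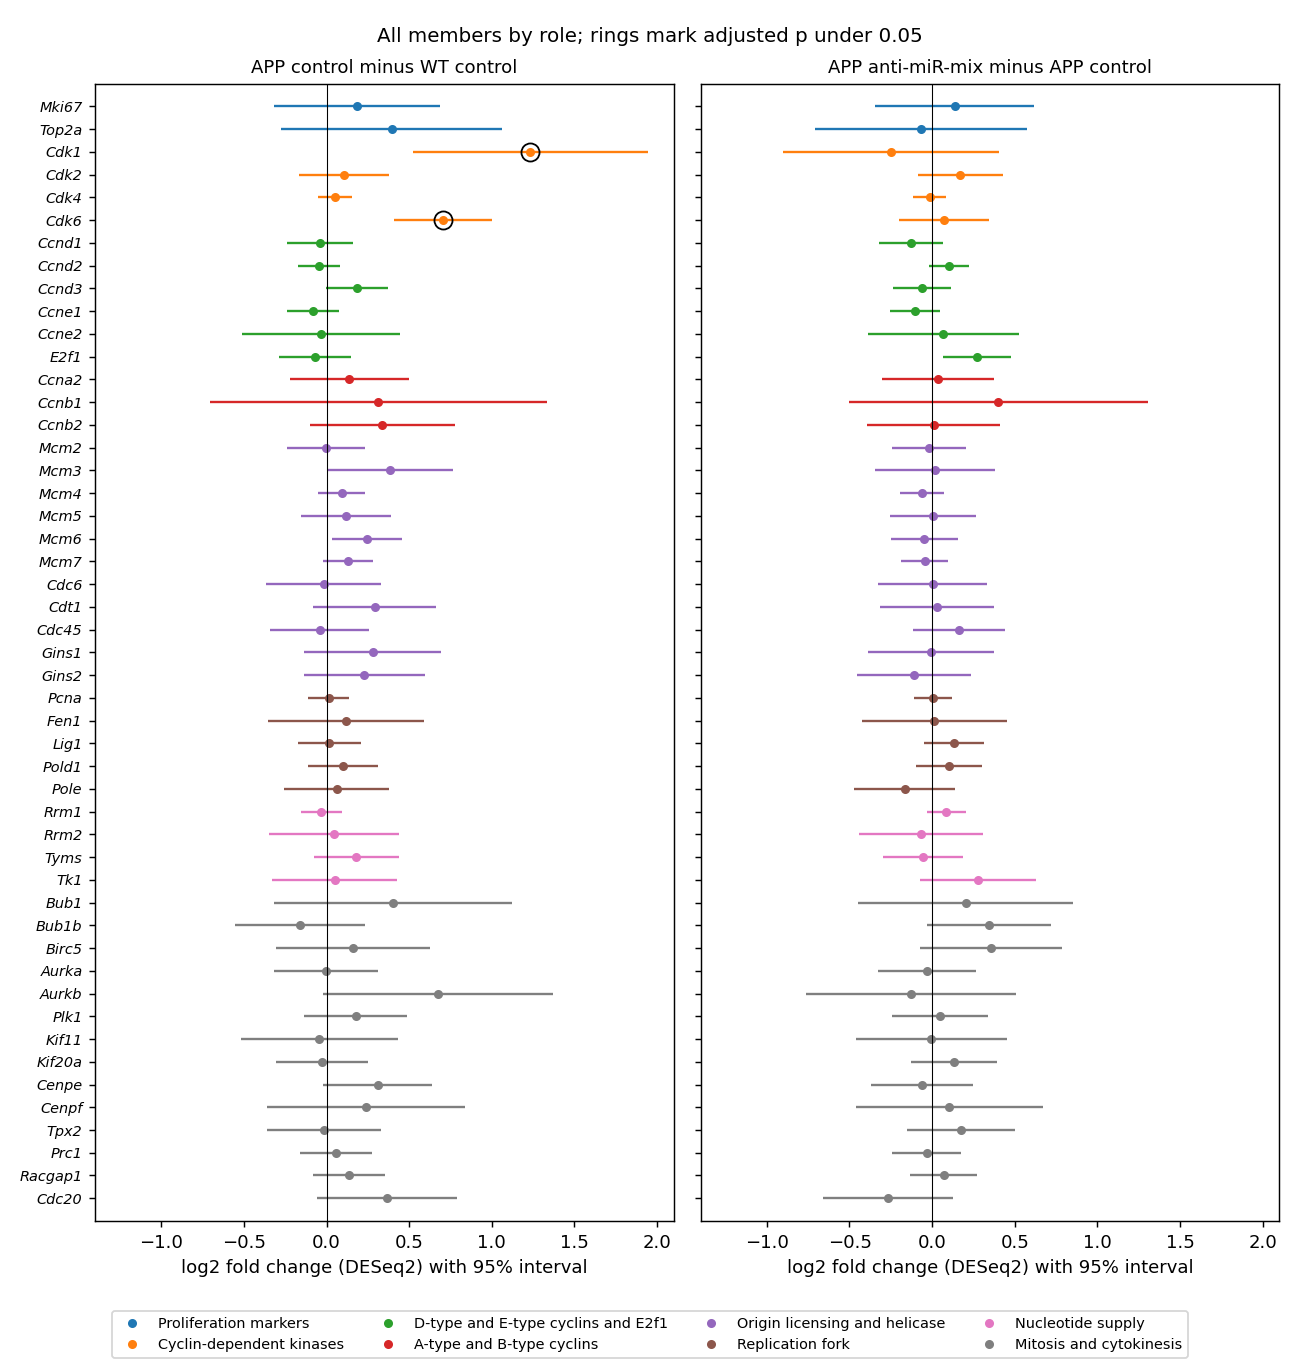
Log2 fold change (horizontal axes) with its 95% interval for each of the 49 cell cycle genes, in APP control against WT control and in the APP anti-miR-mix group against APP control. Rings mark DESeq2 adjusted p under 0.05, which are Cdk6 and Cdk1 in the first comparison and none in the second, and the low-count genes such as Ccnb1 have the widest intervals.

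Microglial genes rose in the same libraries. Of 12 homeostatic microglial markers 10 rose in APP control in DESeq2, with a median log2 fold change of 0.85, as did 11 of 14 markers of plaque-associated microglia (median 1.55) and 10 of 12 microglial growth factors, receptors and their regulators (median 0.88). The counts were 8, 10 and 9 in edgeR and 10, 11 and 10 in limma. The homeostatic marker Tmem119 did not pass with all libraries, but did without APP control 5 (log2 fold change 0.63, DESeq2 adjusted p = 0.00402). The summed normalized counts of the homeostatic list were 12791 to 19090 in WT control, 16563 to 36001 in APP control and 24438 to 37676 in APP anti-miR-mix. Csf1r, the receptor on which microglia depend, had a log2 fold change of 0.92 (DESeq2 adjusted p = 2.26e-07), and its ligand Csf1 of 0.57 (adjusted p = 0.00244). The upper ends of the 95% intervals of 43 of the 49 cell cycle genes lay below the value of Csf1r, the exceptions being the 6 genes named above. This takes no account of the spread of Csf1r, and the part of microglia in the levels of these genes was not tested.

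Marker lists of other cell types were read in the same way. Of 10 markers of oligodendrocyte precursors none passed the test in DESeq2, edgeR or limma (1 had an unadjusted p under 0.05 in DESeq2). Their marker Pdgfra had a log2 fold change of 0.02, and the summed counts of the list were 10681 to 13294 in WT control and 9679 to 13411 in APP control. None passed by the 3 tools of 11 markers of neural progenitors and immature neurons, 6 of dentate granule neurons, 6 of ependyma and choroid plexus and 10 of blood cells that DESeq2 tested, with 1, 0, 1 and 3 at an unadjusted p under 0.05. Of these, 1 gene of ependyma and choroid plexus and 3 of blood cells had no adjusted p and so could not pass, and the blood list had 8 of 10 values above 0 with a median of 0.59. Of 8 astrocyte markers 1 rose in DESeq2 and edgeR (Gfap, log2 fold change 1.44) and 2 in limma, with 4 at an unadjusted p under 0.05 in DESeq2. Of 8 markers of endothelium and mural cells 1 rose in each of the 3 tools (Flt1 in DESeq2), with 3 at an unadjusted p under 0.05 and all 8 values above 0. The part of these cell types in the values of Cdk6 and Cdk1 was not tested.

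APP anti-miR-mix was compared with APP control to see the effect of the miRNA inhibitors. None of the 49 members passed the test, and neither did any of the 19297 genes (0%) in either DESeq2 or edgeR. With an unadjusted p under 0.05 were 1 member, E2f1, and 552 genes of the whole table (2.86%). No member had groups without overlap, against 0.0207% of all genes. The log2 fold change was above 0 for 28 of 49 members, with a median of 0.01, against 49.2% of all genes with a median of 0.00.

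E2f1, the factor that switches on replication genes, had 230 to 289 normalized counts in APP control (median 265) and 251 to 380 in APP anti-miR-mix (median 315). The groups overlapped. The log2 fold change was 0.27 (SE 0.11, 95% interval 0.07 to 0.48), with a DESeq2 adjusted p of 1.0.

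The values of Cdk6 and Cdk1, the genes with seed matches in their 3′UTR that had risen in APP control, are given with their intervals. Cdk6 had a log2 fold change of 0.07 in the APP anti-miR-mix group against APP control (95% interval -0.20 to 0.35). That of Cdk1 was -0.25 (95% interval -0.90 to 0.41). Ccna2, which holds a match for each of the 3 miRNAs, had a value of 0.03 (SE 0.17). The interval lay within ±0.5 for 36 of 49 members and below 1 for 48, Ccnb1 being the exception, and the largest values were those of Ccnb1 (0.40, SE 0.46) and Birc5 (0.36, SE 0.22).

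APP anti-miR-mix and WT control differ in both genotype and oligonucleotide, and this comparison shares the WT control libraries with the first. Of the 49 members 1 rose, Cdk6 (2.04%), against 8.95% of all genes (5.59% higher and 3.36% lower). Cdk6 had a log2 fold change of 0.78 (SE 0.14, DESeq2 adjusted p = 5.17e-06) and passed in all 30 alternatives. It was again the only member whose groups did not overlap, against 3.42% of all genes. The log2 fold change was above 0 for 41 of 49 members with a median of 0.15, against 45.6% of all genes with a median of -0.02.

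Cdk1 had a log2 fold change of 0.99 (SE 0.35) in this comparison with a DESeq2 adjusted p of 0.0533. It passed the threshold without WT control 1 (0.00218), WT control 4 (0.0308), APP control 2 (0.0491), APP control 5 (0.0324) or APP anti-miR-mix 7 (0.0384), and in limma on the deposited table (log2 fold change 0.51, adjusted p = 0.0362). Cdk2 passed without APP anti-miR-mix 2 (log2 fold change 0.34, adjusted p = 0.0446), and Ccne1, which was lower, without WT control 1 (-0.22, adjusted p = 0.0495). With all libraries the values of Cdk2 and Ccne1 were 0.27 (SE 0.13, adjusted p = 0.210) and -0.18 (SE 0.08, adjusted p = 0.128). Mki67 had a log2 fold change of 0.32 (SE 0.25, adjusted p = 0.531), Top2a of 0.33 (SE 0.33, adjusted p = 0.677) and Mcm3 of 0.40 (SE 0.19, adjusted p = 0.189).

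The rest of the pathway was read from 106 further genes, all tested, namely 10 CDK inhibitors and pocket proteins, 16 E2F, DREAM and MuvB factors, 40 replication genes and 40 mitosis genes. In each comparison with WT control, 3 of the 106 had no adjusted p in DESeq2 and so could not pass there. None passed the test in APP control against WT control in DESeq2 or edgeR, and 1, Pola2, in limma on the deposited table (9 of 106 had an unadjusted p under 0.05, against 13.7% of all genes; median log2 fold change 0.06 in DESeq2). None passed in the APP anti-miR-mix group against APP control in these 3 fits (2 with an unadjusted p under 0.05, against 2.86% of all genes). Against WT control 4 rose and none fell in the mix-treated mice, and this share of 3.77% lay below the 8.95% of all genes (5.59% higher). Of the 4 lists, the 10 CDK inhibitors and pocket proteins held 2 of these genes and 5 with an unadjusted p under 0.05 (19.4% of all genes), and in APP control against WT control the same list had 4 with an unadjusted p under 0.05 and a median of 0.29. The genes that rose were the CDK inhibitors Cdkn2c and Cdkn1c with Kif22 and Rpa2, which are given for their values.

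Cdkn1c had 23.2 to 42.3 normalized counts in WT control and 45.5 to 70.6 in APP anti-miR-mix, without overlap, as were 3.42% of all genes (log2 fold change 0.78, DESeq2 adjusted p = 0.00832). Cdkn2c had 46.4 to 76.5 and 63.9 to 101 (0.64, adjusted p = 0.00667), with WT control 1 as the only library of its group above 56.0. The call of Cdkn1c was lost with the replicate number as a block (DESeq2 adjusted p = 0.0656). That of Cdkn2c was lost without WT control 5 and APP anti-miR-mix 6 together (0.0582). The other genes that rose were the mitotic kinesin Kif22 (0.30, adjusted p = 0.0195) and Rpa2, a subunit of the protein that coats single-stranded DNA (0.19, adjusted p = 0.0470).

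The call of Kif22 was lost without WT control 4, 5 or 6 or APP anti-miR-mix 1 or 7 (adjusted p of 0.0527 to 0.0724). That of Rpa2 was lost without WT control 2, 4, 5 or 6, APP control 3, 4 or 5, or APP anti-miR-mix 1, 2, 3, 4, 6 or 7 (0.0515 to 0.168), and also in edgeR (0.0676), in the fit of both groups alone (0.0690) and without a filter on low counts (0.0512). Cdkn1a, an inhibitor that p53 switches on, had log2 fold changes of 0.52 in APP control (adjusted p = 0.149) and 0.50 for the mix-treated mice (adjusted p = 0.0985) against WT control in DESeq2. APP control 5 had 564.9 normalized counts of Cdkn1a where the other APP control libraries had 209 to 293, and without it the value in APP control was 0.23 (adjusted p = 0.535). Cdkn1a passed the threshold in APP control without WT control 1 (0.0358) and for the mix-treated mice without WT control 1 (0.0252) or APP control 5 (0.00356). In the fit of both groups alone, Cdkn1a (0.00626) and the primase subunit Prim1 (0.0481) passed for the mix-treated mice against WT control. With the replicate number as a block Cdkn1a passed (0.000836), while Kif22 (0.248) and Rpa2 (0.258) did not. In APP control against WT control, Pola2, a subunit of the primase complex, passed without WT control 1 (0.0106) or APP control 6 (0.0449), and Cdkn1c without APP control 1 (0.0379) or APP control 4 (0.0273). Cdkn1b had a value of -0.03 in APP control.

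The spread within groups was itself patterned, since members were high or low together in particular libraries. WT control 1 had the highest normalized count of its group for 30 of 49 members, against 18.4% of all genes tested. APP control 5 had the lowest for 22 members, against 19.2%, APP anti-miR-mix 7 the lowest for 18, against 18%, and APP control 2 the highest for 18, against 19.4%. WT control 1 also had 34.3 normalized counts of the T cell gene Cd3e, where the other WT control libraries had 2.24 to 12.9. APP control 5 had 1210 of S100a8, a neutrophil gene, where APP anti-miR-mix 3, the next highest, had 31.9. It also had 678.3 of the microglial gene Tmem119, below the 716.9 to 1105.7 of WT control and the 1011.3 to 1626.2 of the other APP control libraries, and the part of this in the members was not tested.

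**Figure D3:**
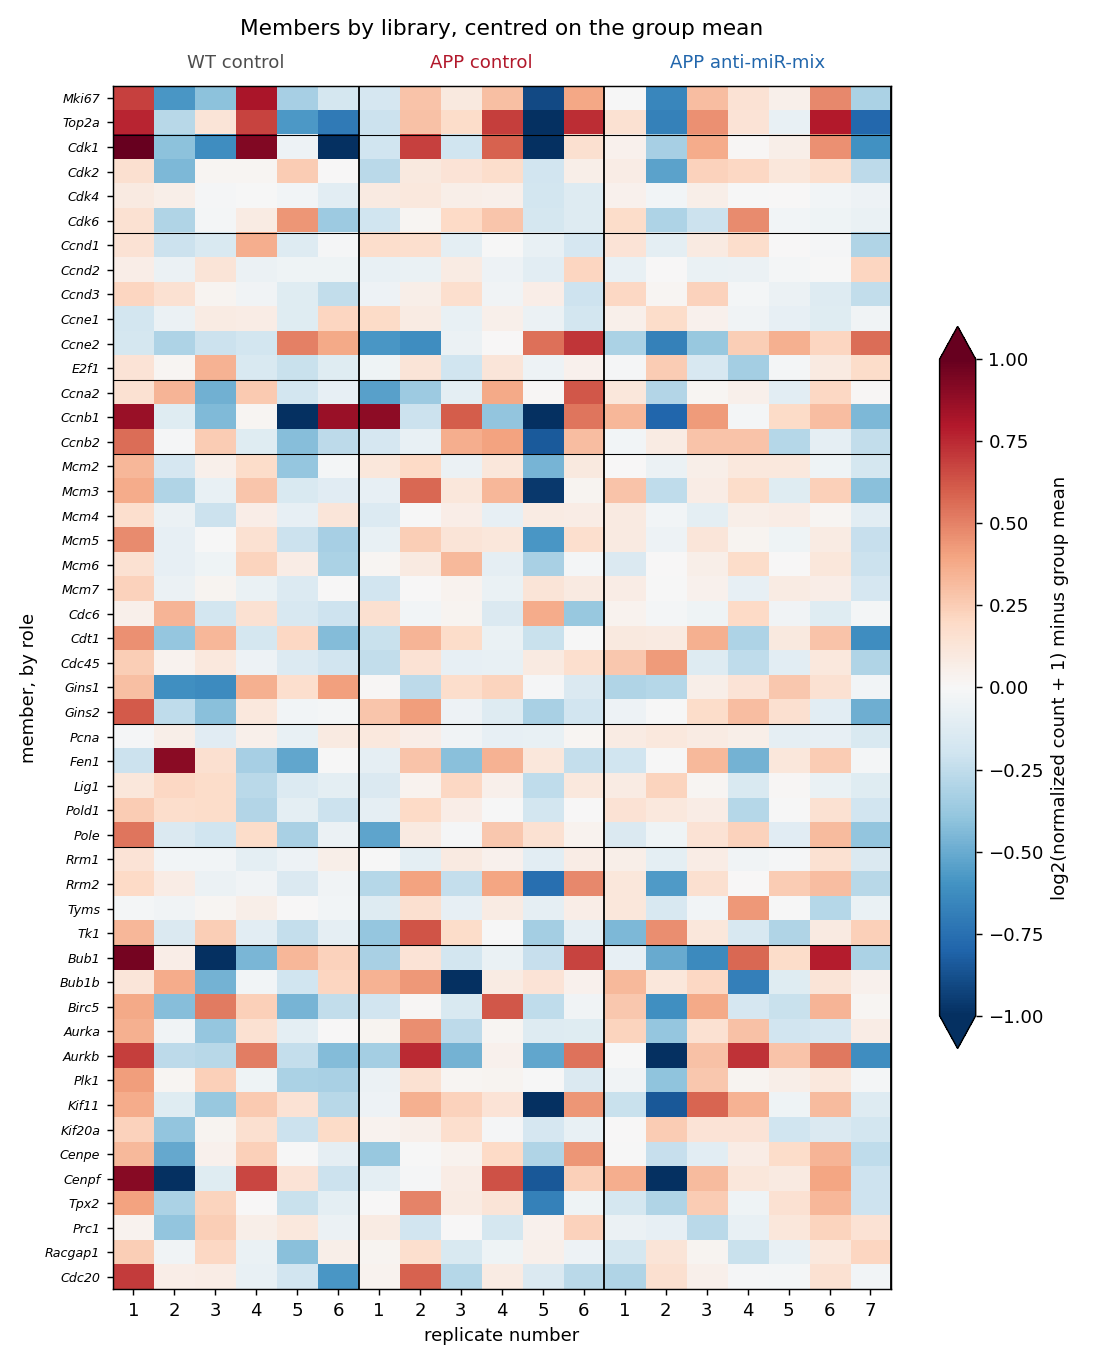
Each row is a cell cycle gene and each column a library, grouped as WT control, APP control and APP anti-miR-mix, with the colour giving log2(normalized count + 1) minus the mean of the group, limited to ±1. WT control 1 is mostly above and APP control 5 mostly below the group mean.

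A set of members varied with Mki67 across the 19 libraries. Values were log2(normalized count + 1) minus the group mean, and the relation was examined after values had been seen, over 24 members and 13 marker genes (37 relations in all, 100000 permutations within groups, two-sided). Top2a had Pearson's r = 0.88 and Spearman's rho = 0.90 (permutation p = 4e-05 and 3e-05, adjusted p = 0.000925 and 0.00074). The 12 members with an adjusted permutation p under 0.05 for r also included Cdk1 (0.84), Kif11 (0.83), Mcm3 (0.83), Mcm5 (0.80), Cenpe (0.78), Mcm2 (0.76) and Rrm2 (0.71). With rho there were 8. Without the 2 libraries farthest from the median of Mki67, r was 0.85 for Top2a, 0.78 for Cdk1, 0.81 for Kif11 and 0.79 for Mcm3, and with the adjustment number removed as well as the group it was 0.91, 0.92, 0.83 and 0.86.

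Other members did not vary with Mki67 beyond what permutation gave. They included Cdk6 (r = 0.36, rho = 0.36, adjusted permutation p = 0.234 and 0.236), Cdk4 (r = 0.39), Pcna (r = 0.11), Lig1 (r = -0.07), Racgap1 (r = -0.01), E2f1 (r = -0.17) and Ccne1 (r = -0.24). Cdk1 was thus among the members that followed Mki67. Cdk6, with r of 0.36, was not among those past the threshold, but whether Cdk1 and Cdk6 differ in this was not tested.

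Of the markers, Cd3e (r = 0.70, rho = 0.67, adjusted permutation p = 0.0114 and 0.0239) passed by both measures. Csf1 (r = 0.66), Clec7a (r = 0.64) and Tmem119 (r = 0.63) passed for r (adjusted permutation p = 0.0149, 0.0310 and 0.0180) but not for rho (0.0545, 0.0631 and 0.0571). Csf1r had r = 0.42 (adjusted permutation p = 0.158), Pdgfra -0.38 (0.162) and Dcx -0.31 (0.263).

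**Figure D4:**
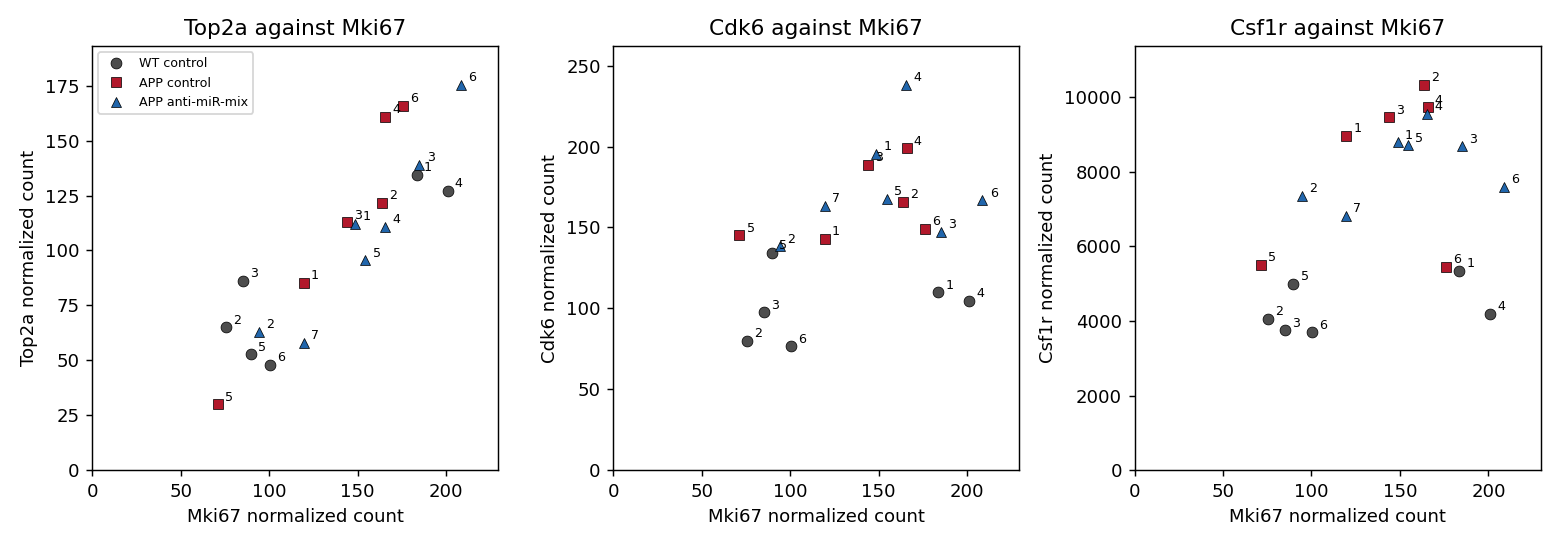
Normalized counts of Top2a, Cdk6 and Csf1r (vertical axes) against those of Mki67 (horizontal axes), with 1 point per library and its replicate number beside it, in WT control, APP control and APP anti-miR-mix. Top2a follows Mki67 in all 3 groups, while Cdk6 is 138 to 238 in the APP libraries and 76.5 to 134 in WT control at both low and high Mki67.

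The last member to be described, Ccne2, which encodes an E-type cyclin, was chosen after its values were seen. The normalized table that the authors deposited was computed with a whole number from 1 to 5 for each library, the adjustment number, whose meaning is not stated. Ccne2 had 93.2 to 135 normalized counts in the 8 libraries with a number of 1 or 2 (median 121), 135 to 198 in the 5 libraries with 3 and 179 to 237 in the 6 libraries with 4 or 5 (median 215). The low and high numbers did not overlap for Ccne2, alone among the 49 members, or for 2103 of all 19297 genes (10.9%). The group log2 fold change of Ccne2 was -0.03 (SE 0.24) in APP control against WT control, and each group contained low and high numbers. Mitochondrial genes took 2.84 to 3.39% of the counts in the libraries with a number of 1 or 2, 3.76 to 4.87% with 3 and 4.32 to 4.72% with 4 or 5, and their part in the level of Ccne2 was not tested.

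WT control shared 4 of the numbers with each APP group, with 1 or 2 libraries per group in each number. Within these numbers the log2 difference between APP control and WT control was above 0 in all 4 for Cdk6 (0.13 to 0.90). For Cdk1 it was above 0 in 3 of 4 (-0.16 to 2.59). The sign for Cdk6 was fixed in advance in both comparisons with WT control, since its groups did not overlap. The difference between mix-treated mice and WT control was above 0 in 4 of 4 for Cdk6 (0.30 to 0.93) and in 3 of 4 for Cdk1 (-0.10 to 1.75).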

How the data were processed

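Sequencing reads of 50 nt from CA1 polyA RNA were processed by the authors, who aligned them to mm10 with STAR (v2.5.2b) and counted them per gene with featureCounts of Subread (v1.5.1) after FastQC (v0.11.5), giving the deposited raw counts. The annotation release and strand setting are not given in the sources used here. The authors also deposited normalized values on the log2 scale for 18825 genes, which entered only as an alternative and as the source of the inferred adjustment number. Symbols and coordinates are from GENCODE M21 on GRCm38.

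The 49 members and all lists were chosen with results of these data already known. Genes that reached 5 counts in 50% or more of the libraries were tested with DESeq2 (1.42.0) in a single fit of 3 groups (Wald test, unshrunken log2 fold change, Benjamini-Hochberg adjusted p under 0.05 over all genes). Alternatives used edgeR (4.0.16) and limma (3.58.1) in R (4.3.3), other filters and scalings, and subsets of libraries. The test was tried on simulated counts first. RPKM was computed from the counts with the exon length of GENCODE M21. Total counts were 19362343 to 37018917 per library, and within groups the chi-square between libraries was 4.6 per gene or more, above sampling noise. Named were the members past the threshold, fixed representatives of each role and the 3 members with the smallest p in each comparison. Pathway genes past the threshold and some, not all, of the defining markers were also named. Members outside this rule are named for a count, a range or an exception and were chosen after their values were seen. Promoters, miRNAs and seed matches were read from RefSeq and GENCODE M21.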

Additional observations from a re-analysis of the deposited data

Results flagged for a closer look

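Of 141 sets of values (a named gene in a group) 8 had a library far from the others by Dixon's criterion, where chance gives about 1 in 20, or 7.05. Among members, the normalized count of Ccnd2 was 1994 in APP anti-miR-mix 7 (1630 to 1718 in the other libraries of the group) and that of Bub1b was 60.27 in APP control 3 (128 to 168). Among CDK inhibitors, Cdkn1a had 564.9 in APP control 5 (209 to 293) and Cdkn2c had 76.52 in WT control 1 (46.4 to 56.0). Among markers, Cd3e had 34.34 in WT control 1 (2.24 to 12.9) and Pdgfra had 2418 in APP anti-miR-mix 7 (1876 to 2032). Ttr, a choroid plexus gene, had 1443 in WT control 5 (32.6 to 124) and 1084 in APP anti-miR-mix 6 (22.7 to 162).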

How the results depend on the processing

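Each result was computed under 30 alternatives, 19 of which leave out a library each. In APP control against WT control, 1 to 3 members passed the threshold with a library left out (666 to 1209 of all genes), and 1 passed in edgeR (614), in the fit of both groups alone (746), with the adjustment number as a factor (874) and without WT control 5 and APP anti-miR-mix 6 together (857). Of the other cell cycle genes 0 to 2 passed with a library left out, 1 in limma on the deposited table and 1 without WT control 1 and WT control 5. In the APP anti-miR-mix group against WT control, 1 to 3 members passed with a library left out (1169 to 2012 of all genes), 2 in limma (1910 of all genes), and 3 (Ccne1, Cdk1 and Cdk6) without WT control 1 and WT control 5 (1958). Of the other cell cycle genes 2 to 5 passed with a library left out and 1 (Cdkn1c) without WT control 5 and APP anti-miR-mix 6. In the APP anti-miR-mix group against APP control no member passed under the alternatives run, and of all genes 3 passed in the fit of both groups alone and 0 to 3 with a library left out. In APP anti-miR-mix against WT control edgeR called 1150 of all genes, where DESeq2 called 1727. Ttr turned from -1.79 to 2.17 on the log2 scale in the APP anti-miR-mix group against WT control without WT control 1 and WT control 5. The cause of these changes was not tested. Of 4222 values for single genes, 51 fell below the threshold and 35 passed it. Not replacing outlying counts was chosen after seeing the data.

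Whether replicate numbers pair the libraries was not settled. Correlations of same-numbered deviations ran from -0.125 to 0.347, and the best correlation with another number ran from 0.071 to 0.352. The adjustment number rose or stayed level with the replicate number in each group, so same-numbered libraries were close in it. With the replicate block, 3 members (Cdk1, Cdk6 and Mcm3) and 2 other cell cycle genes (Cdkn1a and Cdkn2c) passed in the APP anti-miR-mix group against WT control, where 1911 of all genes passed, and 24 of all genes in the APP anti-miR-mix group against APP control. The calls of Cdkn1c (adjusted p = 0.0656), Kif22 (0.248) and Rpa2 (0.258) were lost in the block. In APP control against WT control the members with the largest standard errors were Ccnb1 (0.52), Bub1 (0.37), Cdk1 (0.36) and Aurkb (0.36).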
